A study of Mus musculus with 6 samples.

Results

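DNA damage signalling and repair genes were followed in mouse B lymphoma cells that carried a short hairpin RNA (shRNA) against Dhx9. The set comprised 41 genes chosen by name for damage kinases, recombination, the Fanconi anaemia pathway, end joining and R-loop removal. Of these, 39 were measured, each by 1 probe set, among 18784 genes in all, and Atr and Xrcc2 were not analysed here. All cells had the genotype Arf-/-Eu-myc/Bcl-2, that is, loss of the Arf tumour suppressor together with an E-mu enhancer-driven Myc and a Bcl-2 transgene. The control group (3 arrays) expressed Rluc.713, a hairpin against Renilla luciferase, and the other group (3 arrays) expressed Dhx9.1241. Both groups were cultured on gamma-irradiated Arf-/- mouse embryonic fibroblasts, and no drug is named for any array. A single hairpin stood for Dhx9, so an effect of its sequence on other transcripts cannot be told apart from that of Dhx9 loss. The labels do not say whether the arrays of a group came from separate cultures or lymphomas, so the p-values rest on array-to-array spread that may be only technical.

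Cells sense broken or stalled DNA through the kinases ATM, ATR and DNA-PK, which phosphorylate histone H2AX and activate the checkpoint kinases CHK1 and CHK2. Breaks are then joined end to end by the Ku and ligase IV machinery or copied from the sister chromatid by BRCA1, BRCA2, PALB2 and their partners, while the Fanconi proteins clear crosslinks. DHX9 is a helicase that unwinds RNA:DNA hybrids, the core of R-loops, which RNase H enzymes digest. Lymphoma cells driven by MYC replicate under stress and draw on the ATR and CHK1 branch, and B cells also use end joining to assemble their antigen receptor genes.

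Dhx9 itself was lower on the Dhx9.1241 arrays (log2 change -0.99, SE 0.0529, adjusted p = 0.000129), whereas Dhx29, which the sample titles name, was not called (0.04, adjusted p = 0.857). The 9 measured B cell markers had mean log2 levels from 10.02 to 13.84, among them Cd79a at 13.8 and 13.69 and Pax5 at 12.39 and 12.34 (control and Dhx9.1241). Of these 9, Vpreb3 was called lower (-0.57, adjusted p = 0.000891), and Ms4a1, at 9.87 and 10.18, lay higher without overlap but did not pass. The linear levels of the 9 summed to 64160 to 68370 on control arrays and 60120 to 62730 on Dhx9.1241 arrays, so the ranges did not overlap. Nor did those of 9 myeloid markers, at 8966 to 9569 and 7748 to 8235. Of these, 4 were called lower, led by Lyz2 (-1.31, adjusted p = 0.000129), while Fcgr3 (0.22) and Itgam (0.21) lay higher without overlap and did not pass. Vpreb3 (13.04 in control and 12.47 in Dhx9.1241) weighs on the B cell sum and Lyz2 (10.66 and 9.35) on the myeloid sum. Neither sum was computed without that gene, so the separated ranges do not show a fall of either marker list as a whole. The sums of 13 fibroblast markers, for the feeder cells, overlapped at 3708 to 4254 and 3756 to 3810. Those of 9 T and NK cell markers overlapped too, at 6462 to 6761 and 6374 to 6896, but Cd2 carried most of each sum, and without it the other 8 gave 1369 to 1463 and 1434 to 1504. No marker is at 0, since these log2 values have a floor above it. Fewer cells of a type and less RNA per cell cannot be told apart in such bulk samples, and the part of these markers in the results below was not tested.

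No measured repair gene passed the threshold, an adjusted p under 0.05 in limma's moderated test over all genes. The count was 0 of 39, against 590 of 18784 genes (3.14%), of which 2.07% were higher in Dhx9.1241 and 1.07% lower. At an unadjusted p under 0.05, 4 of the 39 were higher (Rnaseh2a, Rad52, Palb2, Atm) and 2 lower (H2ax, Nbn), together 15.4% of the genes. Over all genes the share was 14.1%, with 8.5% higher and 5.63% lower, close to that of the repair genes. The same 6 genes were those whose control and Dhx9.1241 arrays did not overlap, 15.4% again, against 20.1% over all genes (11.6% higher and 8.51% lower). All 39 genes lay at or above the median level, and of the 9392 genes there 5.15% passed, 22.1% had an unadjusted p under 0.05 and 31.5% had groups without overlap, larger shares than those of the repair genes. The log2 changes (Dhx9.1241 minus control) ran from -0.15 to 0.25 with a median of -0.021, and the median over all genes was 0.005. The mean was lower in Dhx9.1241 for 22 of the 39 (56.4%), against 47.5% of all genes. The intervals of the changes were narrow, as the plot of changes by pathway shows, but they too rest on array-to-array spread that may be only technical. The 95% interval lay within -0.5 and 0.5 for all 39 genes (97.1% of all genes), and within -0.3 and 0.3 for 36 of them (92.3%, against 83.4% of all genes). Arrays were simulated with the real gene-wise spread, independent noise between genes and 200 changed genes, fewer than the 590 called here. In them the same test recovered 40.6% of genes changed by 0.3 and 78.4% of those changed by 0.5. These rates hold for that setting only.

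**Figure D1:**
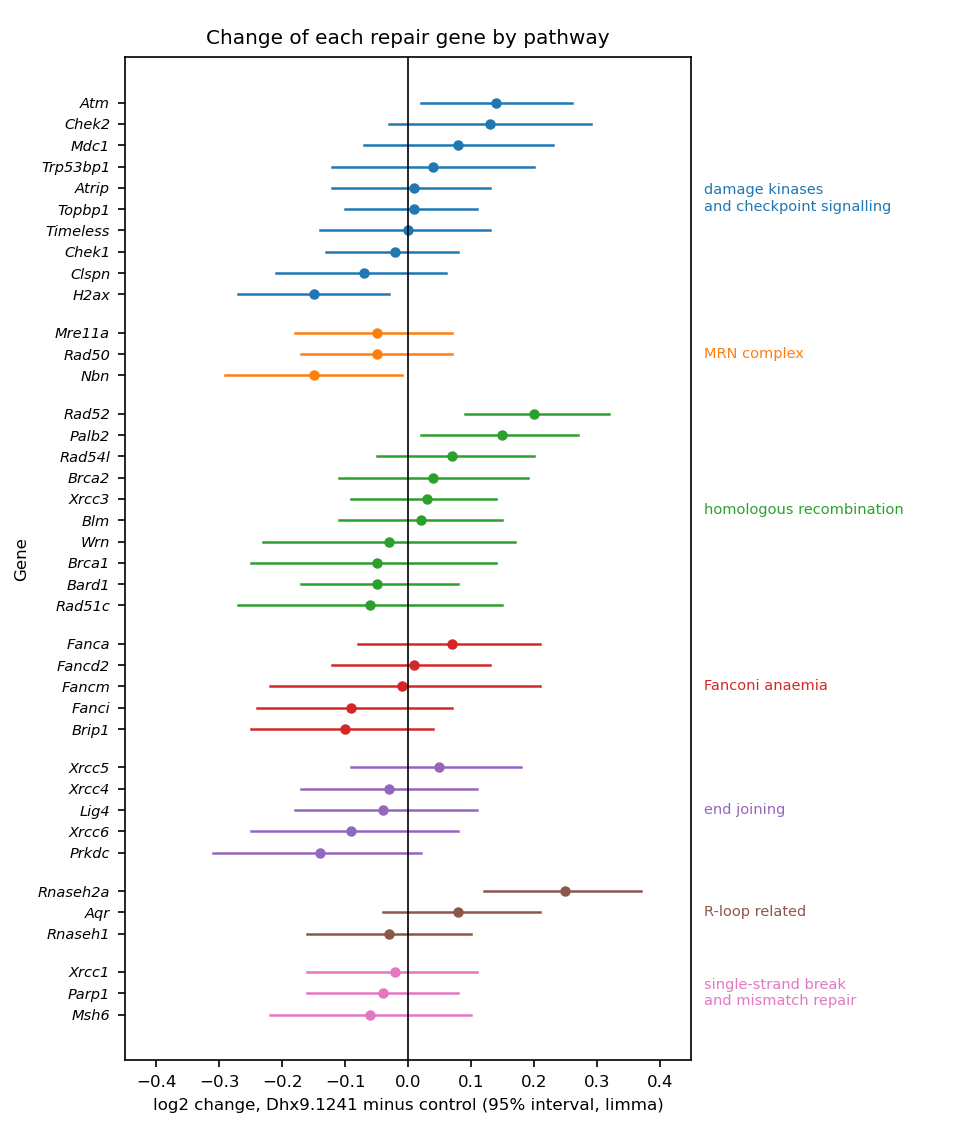
Log2 change (Dhx9.1241 minus control, x axis) of each of the 39 measured repair genes (y axis), grouped and coloured by pathway; points are differences of means (n = 3 and 3) and lines the 95% limma intervals. The intervals of Rnaseh2a, Rad52, Palb2, Atm, H2ax and Nbn leave out 0, and no gene passed the threshold adjusted over all genes.

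Sequence upstream of these genes is shown for those with the smallest unadjusted p, because a shared regulator of the set would be looked for there. RefSeq promoter windows of assembly GRCm38.p6 (250 bases before to 50 after the start) were matched for 32 of the 39 genes. The table of windows used here held none for H2ax and 6 other members. The windows of Rnaseh2a (chr8:84966027-84966326, minus strand), Rad52 (chr6:119902448-119902747, plus strand) and Palb2 (chr7:122132897-122133196, minus strand) are printed 5′ to 3′ along the gene. Capitals mark matches on either strand to the motifs searched. The E-box, which MYC binds, was spelled CACGTG. The E2F-type element, a site of cell cycle genes, was spelled in a first form as TTCCCGC and in a second form as TTGGCGC. The box of the factor NF-Y was spelled CCAAT, and the GC box of the SP family was spelled GGGCGG.
Rnaseh2a: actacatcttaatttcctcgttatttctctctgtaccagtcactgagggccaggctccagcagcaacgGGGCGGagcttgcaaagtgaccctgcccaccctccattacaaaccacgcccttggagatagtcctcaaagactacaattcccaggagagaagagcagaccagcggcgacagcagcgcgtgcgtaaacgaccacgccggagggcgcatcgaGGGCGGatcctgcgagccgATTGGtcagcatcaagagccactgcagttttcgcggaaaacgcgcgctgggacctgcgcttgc
Rad52: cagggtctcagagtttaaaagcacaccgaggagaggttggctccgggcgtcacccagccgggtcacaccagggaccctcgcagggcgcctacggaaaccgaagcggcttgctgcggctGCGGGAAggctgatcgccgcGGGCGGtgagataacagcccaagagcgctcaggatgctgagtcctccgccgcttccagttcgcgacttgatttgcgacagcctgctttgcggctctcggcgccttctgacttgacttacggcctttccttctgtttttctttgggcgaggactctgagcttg
Palb2: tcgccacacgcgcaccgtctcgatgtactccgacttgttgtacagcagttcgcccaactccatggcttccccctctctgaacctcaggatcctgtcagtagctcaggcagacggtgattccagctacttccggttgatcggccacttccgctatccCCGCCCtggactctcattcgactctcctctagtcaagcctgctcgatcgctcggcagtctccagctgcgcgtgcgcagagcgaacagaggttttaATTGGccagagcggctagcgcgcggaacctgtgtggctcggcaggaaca
The Rnaseh2a window held GC boxes and a CCAAT box, that of Rad52 an E2F-type element and a GC box, and that of Palb2 a GC box and a CCAAT box, with no E-box in any of the 3. Over the 32 windows, an E2F-type element was found in 14 (43.8%), against 9.51% of the windows of 15059 tested genes, 1 per gene. It was found in 5 of 9 windows of the damage kinase and checkpoint genes, 4 of 9 of the recombination genes, 2 of 4 of the Fanconi genes and 2 of 4 of the end joining genes. A CCAAT box was in 20 (62.5%, against 38.6%), a GC box in 22 (68.8%, against 50.2%) and an E-box in 2 (6.25%, against 8.41%). No E2F-type match in these windows overlapped a CCAAT match. The median GC content was 59.7% in the repair gene windows and 57.7% in all windows. All 39 genes lay at or above the median level, and no motif share was computed for other genes of like level. A match is a run of letters and not a measured binding site.

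Another feature of position was shared by part of the set. Of the 32 genes with a window, 11 (34.4%) start within 1000 bases of a gene that is read in the opposite direction away from them, against 14.2% of 15059 tested genes. The share among genes of like level was not computed. The pairs with both genes measured were Atm and Npat, Brca1 and Nbr1, Lig4 and Abhd13, Mre11a and Ankrd49, Palb2 and Dctn5, Rad51c and Tex14, Xrcc1 and Pinlyp, Xrcc3 and Zfyve21, Xrcc4 and Tmem167, and Xrcc6 and Desi1. The neighbour of 1 of these 10 genes passed the threshold: Pinlyp, beside Xrcc1, stood at -0.53 on the log2 scale (adjusted p = 0.0221, SE 0.0936), while Xrcc1 stood at -0.02. Palb2 (0.15) and Dctn5 (-0.04), and Atm (0.14) and Npat (0.06), had changes of the signs shown, and none of these 4 passed.

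Among the damage kinases and checkpoint genes, 0 of 10 passed, 6 were higher and 4 lower in the mean, and the median log2 change was 0.008. Atm encodes the kinase that answers double-strand breaks. Its log2 level was 10.81, 10.91 and 10.91 on the control arrays and 11.02, 10.98 and 11.04 on the Dhx9.1241 arrays. Every Dhx9.1241 array lay above every control, by a log2 change of 0.14 (adjusted p = 0.245, SE 0.0509, 95% interval 0.02 to 0.26). H2ax, the histone variant that ATM, ATR and DNA-PK mark at breaks, read 11.44, 11.49 and 11.37 in the controls and 11.27, 11.31 and 11.28 in Dhx9.1241. All Dhx9.1241 arrays lay below the controls, by a log2 change of -0.15 (adjusted p = 0.206, SE 0.0506, 95% interval -0.27 to -0.03). H2ax shares coding sequence with other H2A histone genes, and the probe sequences were not used here, so its value is uncertain in that respect.

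The transducers next to these kinases gave values on both sides of 0. Chek2, the effector kinase of ATM, stood at 0.13 (95% interval -0.03 to 0.29), and its controls read 10.07, 10.27 and 10.32 against 10.31, 10.36 and 10.39, so that the groups overlapped by 1 control array. Mdc1, the scaffold that binds phosphorylated H2AX, stood at 0.08, and Trp53bp1, which encodes the chromatin reader 53BP1, at 0.04. The measured members of the ATR branch had changes from -0.07 to 0.01, and Atr itself was not analysed. Atrip, the ATR partner, stood at 0.01 (95% interval -0.12 to 0.13), the ATR activator Topbp1 at 0.01 (-0.10 to 0.11) and Chek1, the effector kinase of ATR, at -0.02 (-0.13 to 0.08). Clspn, the claspin adaptor that brings CHK1 to ATR, stood at -0.07 and the fork protection gene Timeless at 0.00. Topbp1 was among the steadiest members, with controls of 12.55, 12.59 and 12.58 and Dhx9.1241 arrays of 12.59, 12.55 and 12.6.

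The 3 genes of the MRE11-RAD50-NBS1 (MRN) complex, which holds broken ends and recruits ATM, all had lower means in Dhx9.1241, with a median change of -0.051, and none passed. Nbn, which encodes the NBS1 subunit that binds ATM, read 10.05, 10.12 and 10.2 in the controls and 10.04, 9.88 and 9.99 in Dhx9.1241. The groups barely cleared each other, at 10.05 for the lowest control and 10.04 for the highest Dhx9.1241 array, and the log2 change was -0.15 (adjusted p = 0.315, SE 0.0617, 95% interval -0.29 to -0.01). The nuclease gene Mre11a stood at -0.05 (controls 10.8, 10.85 and 10.92, Dhx9.1241 10.83, 10.74 and 10.84). The ATPase gene Rad50 stood at -0.05 as well (controls 11.57, 11.67 and 11.7, Dhx9.1241 11.63, 11.58 and 11.58). In both of these the groups overlapped through control replicate 1, which was the lowest of the controls.

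**Figure D2:**
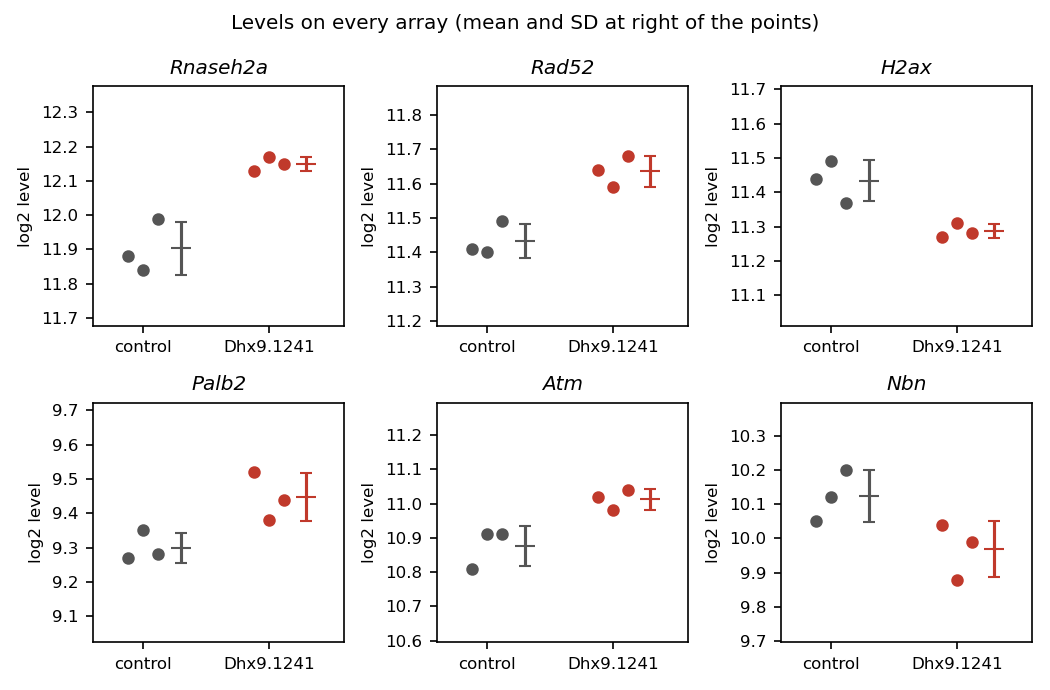
Log2 level (y axis, a range of 0.7 around each gene's own mean) on each control and Dhx9.1241 array (x axis) of the 6 repair genes with an unadjusted p under 0.05; bars at the right are the mean and SD (n = 3). Rnaseh2a, Rad52, Palb2 and Atm lay higher on all Dhx9.1241 arrays and H2ax and Nbn lower, and none of the 6 passed the adjusted threshold.

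In homologous recombination, which copies a lost stretch from the sister chromatid, 0 of 10 genes passed, 6 were higher and 4 lower in the mean, and the median change was 0.025. Rad52, which anneals single strands, had the second largest change of the 39 genes. It read 11.41, 11.4 and 11.49 in the controls and 11.64, 11.59 and 11.68 in Dhx9.1241, without overlap. The log2 change was 0.20, or 1.15-fold (adjusted p = 0.088, SE 0.0516, 95% interval 0.09 to 0.32). Rad52 passed under 4 of 16 alternative settings, with adjusted p from 0.0121 to 0.0499 in those 4 and up to 0.28 in the others. Palb2, the bridge between BRCA1 and BRCA2, read 9.27, 9.35 and 9.28 in the controls and 9.52, 9.38 and 9.44 in Dhx9.1241. These groups were again apart, by a log2 change of 0.15 (adjusted p = 0.243, SE 0.0544, 95% interval 0.02 to 0.27).

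The genes of PALB2's partners lay nearer 0, and the difference from Palb2 was not tested. Brca1 stood at -0.05 (95% interval -0.25 to 0.14), its ring-finger partner Bard1 at -0.05 (-0.17 to 0.08) and Brca2, which acts with Palb2 in recombination, at 0.04 (-0.11 to 0.19). Brca1 was lowest on control replicate 1 (10.23, against 10.43 and 10.55), which widened its interval. Rad51c, which acts with Xrcc3, varied likewise among the controls (8.94, 9.24 and 9.29) and stood at -0.06, and Xrcc3 at 0.03. The strand exchange motor gene Rad54l stood at 0.07. The RecQ helicase genes Blm and Wrn, which resolve recombination intermediates, stood at 0.02 and -0.03; the WRN protein is a known partner of DHX9.

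None of the 5 Fanconi genes, which act on interstrand crosslinks and stalled forks, passed. Their median change was -0.009, with 2 higher and 3 lower in the mean. Brip1, the helicase that binds BRCA1, had the largest change at -0.10 (SE 0.0626, adjusted p = 0.583), with controls at 10.82, 10.96 and 10.94 and Dhx9.1241 arrays at 10.88, 10.72 and 10.81. Fanci, one side of the clamp that is ubiquitinated at crosslinks, stood at -0.09 (controls 10.18, 10.34 and 10.39, Dhx9.1241 10.25, 10.15 and 10.26), and its partner Fancd2 at 0.01. In both Brip1 and Fanci the groups overlapped because control replicate 1 was low. The core complex gene Fanca stood at 0.07 and the anchor helicase gene Fancm at -0.01. Without control replicate 1 the median of the 5 genes was -0.113, a move larger than the spread of that median between replicates (SD 0.095).

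End joining, which seals breaks without a template, gave 0 of 5 genes past the threshold, with 1 higher and 4 lower in the mean and a median of -0.036. Prkdc encodes the catalytic subunit of DNA-PK, a kinase known to phosphorylate DHX9. Its controls read 9.84, 10.04 and 10.07 and its Dhx9.1241 arrays 9.85, 9.75 and 9.92, a log2 change of -0.14 (adjusted p = 0.466, SE 0.0737, 95% interval -0.31 to 0.02). The groups overlapped through control replicate 1, and over the alternatives the change ran from -0.22 to -0.10 without a call. The subunits of the Ku ring that holds the ends gave values of opposite sign. Xrcc6 (Ku70) stood at -0.09, with controls of 10.66, 10.72 and 10.81 and Dhx9.1241 arrays of 10.76, 10.52 and 10.66, and Xrcc5 (Ku80) at 0.05. Both intervals held 0 (-0.25 to 0.08 and -0.09 to 0.18). The ligase gene Lig4 and its cofactor gene Xrcc4 stood at -0.04 and -0.03.

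Among the genes that act on R-loops, 0 of 3 passed, and the median change was 0.084. Rnaseh2a, the catalytic subunit of RNase H2, which cuts RNA in hybrids and removes single ribonucleotides from DNA, had the largest change of all 39 genes. It read 11.88, 11.84 and 11.99 in the controls and 12.13, 12.17 and 12.15 in Dhx9.1241, so every Dhx9.1241 array lay above every control. The log2 change was 0.25, or 1.19-fold (95% interval 0.12 to 0.37, SE 0.0544), and the adjusted p of 0.0561 was just outside the threshold. It passed under 6 of 16 alternatives, and its change lay between 0.21 and 0.29 in all of them, with adjusted p from 0.00372 to 0.2. Of the accessory subunits of the same enzyme, which are not members, Rnaseh2c stood at 0.16 (SE 0.0528, adjusted p = 0.177) without overlap of the groups and Rnaseh2b at -0.13 (SE 0.0732, adjusted p = 0.529) with overlap. The single-subunit enzyme gene Rnaseh1 stood at -0.03 (controls 9.32, 9.37 and 9.3, Dhx9.1241 9.32, 9.36 and 9.21). Aqr, an intron-binding helicase linked to R-loop removal, stood at 0.08 (controls 12.56, 12.69 and 12.67, Dhx9.1241 12.75, 12.68 and 12.75), and both genes had overlapping groups.

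The 3 genes of single-strand break and mismatch repair all had slightly lower means, with a median of -0.041, and none passed. Parp1, the sensor of single-strand breaks, stood at -0.04 (controls 11.65, 11.74 and 11.78, Dhx9.1241 11.7, 11.67 and 11.67). Its scaffold partner Xrcc1 stood at -0.02 (controls 10.77, 10.93 and 10.79, Dhx9.1241 10.84, 10.83 and 10.77). The mismatch recognition gene Msh6 stood at -0.06 (controls 10.41, 10.63 and 10.59, Dhx9.1241 10.54, 10.43 and 10.48). The groups overlapped in all 3.

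Across the pathways the median log2 change ran from -0.051 for the MRN genes to 0.084 for the R-loop genes, and these differences were not tested. The SD of a pathway's median between replicate arrays ran from 0.033 to 0.095. It was larger than the size of the median change in every pathway but the R-loop genes, where it was 0.048. The medians of the MRN, end joining, R-loop and single-strand break groups kept their sign under all 16 alternatives. Those of the other 3 groups did not. The filters, probe set means, variance trend and replicate block leave these changes as in the main fit, so a sign could not differ there. The recombination median was -0.017 without control replicate 1, and -0.001 both with each array centred on its median and with array weights. The damage kinase median was -0.018 with each array centred on its median and -0.016 without Dhx9.1241 replicate 1. It was -0.006 without control replicate 1, and -0.002 both with quantile normalization again and with array weights. The Fanconi median was 0.044 without Dhx9.1241 replicate 2, 0.015 without control replicate 2 and 0.031 without control replicate 3. The position of the whole set also varied between arrays. Of the 39 genes, 33 had their lowest control value on control replicate 1 (84.6%, against 38.8% of all genes). In the same way 27 had their lowest Dhx9.1241 value on Dhx9.1241 replicate 2 (69.2%, against 34.7% of all genes). The median deviation of the 39 genes from their own mean was -0.073 on control replicate 1 and -0.048 on Dhx9.1241 replicate 2, and 0.006 to 0.035 on the other 4 arrays. Low values on control replicate 1 were not particular to the set. Every list of other repair genes given below was negative there, from -0.112 to -0.025. On Dhx9.1241 replicate 2 those lists ran from -0.076 (mismatch repair) to 0.062 (p53-induced genes). Genes at or above the median level lay at -0.04 and -0.006 on these arrays. Fibroblast markers had a median deviation of 0.179 on control replicate 1 and of -0.067 to 0.025 on the other arrays, with the largest summed level, 4254, also on that array. Their part in the low repair gene values on that array was not tested. Without control replicate 1, 0 of the 39 passed, 27 had lower means and the median was -0.03, against 0.022 over all genes. With Dhx9.1241 replicate 2 left out as well, 0 passed, 23 had lower means and the median was -0.027, against 0.019.

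**Figure D3:**
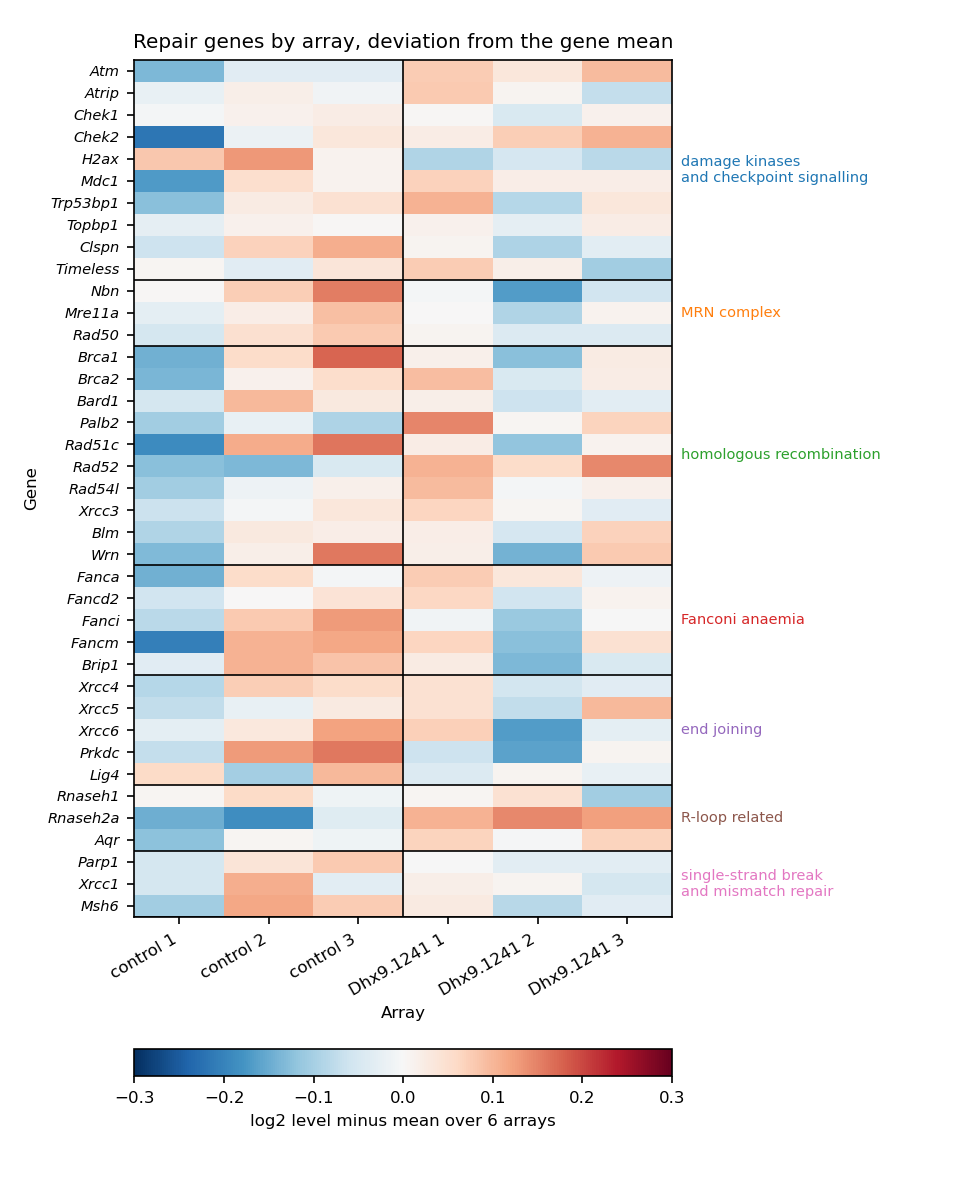
Deviation of each of the 39 repair genes (y axis, by pathway) from its own mean over 6 arrays, on each array (x axis), in log2 units by colour. Control replicate 1 and Dhx9.1241 replicate 2 are the bluest columns, being the lowest of their group for 33 and 27 of the 39 genes.

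**Figure D4:**
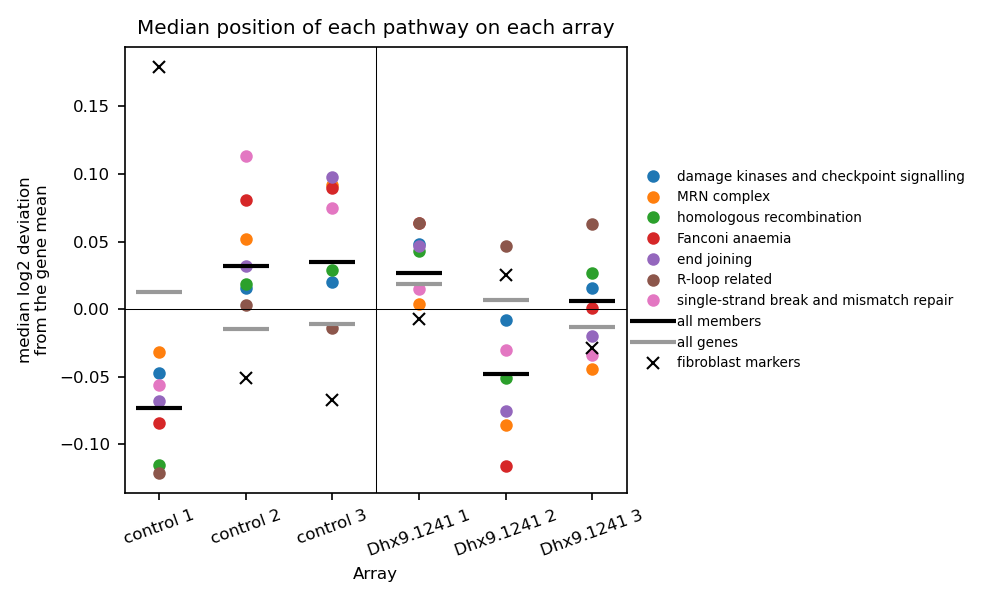
Median log2 deviation from the gene mean (y axis) on each array (x axis) for the 7 pathways (dots), all 39 repair genes and all genes (bars) and fibroblast markers (crosses). The repair genes lay lowest on control replicate 1, at a median of -0.073, where the fibroblast markers lay highest, at 0.179. Genes at or above the median level, not plotted, lay at -0.04 on that array.

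Further repair genes were read from the same test. Of 147 other measured genes of damage signalling and repair, 4 rose (2.72%; 2 without Dhx9.1241 replicate 3), 0 fell (3 without control replicate 1) and 143 did not pass, with a median change of 0.008; at an unadjusted p under 0.05, 17 were higher and 12 lower. Together these were 19.7% of the 147, and 29.9% had groups without overlap. Over all genes 3.14% passed, 14.1% had an unadjusted p under 0.05 and 20.1% did not overlap. The 4 that rose, Zmat3, Cdkn1a, Phlda3 and Sesn1, all came from a list of 14 p53-induced genes (28.6% called), which was written with the earlier result for p53 targets known and is not independent evidence. In that list the repair gene Ddb2, which recognises ultraviolet lesions, stood at 0.32 (SE 0.0941, adjusted p = 0.138) and did not pass. It read 8.75, 9.08 and 9.09 in the controls and 9.35, 9.2 and 9.34 in Dhx9.1241, without overlap. The list was not uniform: 11 of the 14 had higher means and 3 lower. The lower ones were Sesn2 at -0.31 (adjusted p = 0.235), Rrm2b at -0.05 and Ccng1 at -0.05. No gene passed in the lists of other checkpoint and chromatin factors (20 genes), recombination (28), Fanconi (19), end joining (9), R-loop factors (16), base excision (23), mismatch repair (4) or nucleotide excision (16).

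The largest changes in those lists were small or variable. Among checkpoint and chromatin genes, Rad9b, a clamp subunit, stood at 0.39 (adjusted p = 0.173) and the stress kinase gene Mapkapk2 at -0.26 (adjusted p = 0.0572). In recombination the MCM-like helicase gene Mcm9 stood at -0.21 and Rad54b at 0.20, and in the Fanconi list the ubiquitin ligase gene Fancl stood at -0.23 and the nuclease scaffold gene Slx4 at 0.17. In end joining the gap-filling polymerase gene Poll stood at 0.22 (adjusted p = 0.0953) and Shld2 at 0.13. In base excision the thymine glycosylase gene Tdg stood at -0.49, with controls spread from 5.85 to 6.8 and overlapping groups, and Aplf at 0.22. Msh3 (0.11) and Mlh3 (0.04) led mismatch repair, and Ercc5, an excision nuclease, stood at 0.22 (adjusted p = 0.0858) beside Ddb2 in nucleotide excision. The plot of repair gene lists sets these beside the 39 genes.

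**Figure D5:**
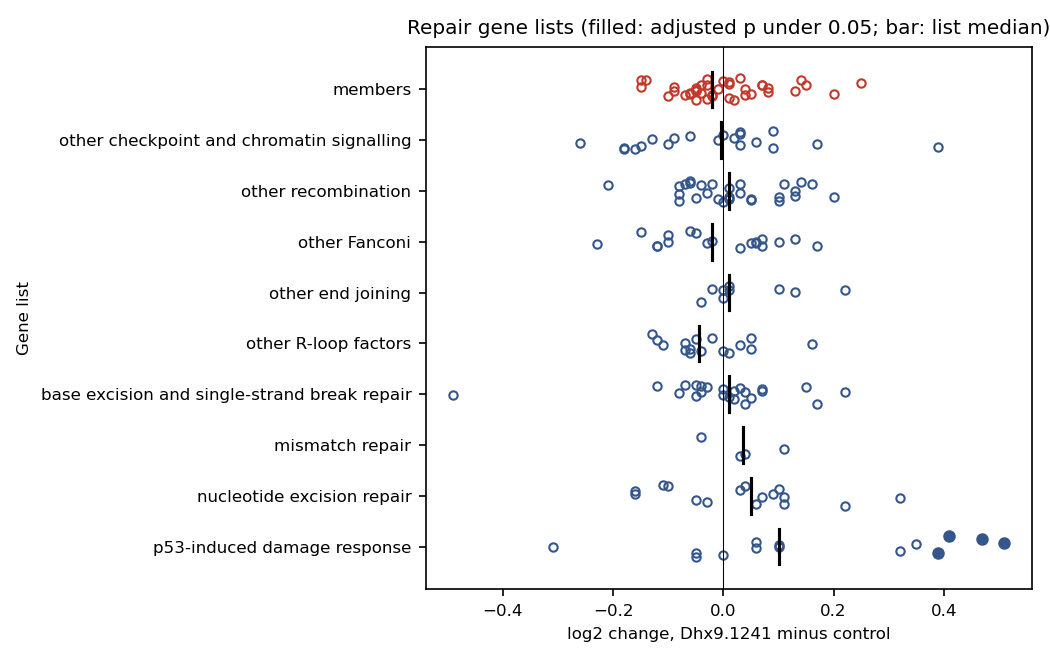
Log2 change (Dhx9.1241 minus control, x axis) of each gene in the 39-gene set and in 9 lists of other repair genes (y axis); filled points passed an adjusted p of 0.05, open points did not, and bars are list medians. The only filled points are Zmat3, Cdkn1a, Phlda3 and Sesn1 in the p53-induced list.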

How the data were processed

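RNA of 6 lymphoma cell samples was measured on Affymetrix arrays (3′ IVT Express labelling, per the labels' protocols). The deposited log2 values, 1 per probe set and array, were made by the authors with robust multi-array average (RMA, as per the submitters' processing notes). The method corrects background, normalizes between arrays and summarises probes, which tends to compress the changes of dim genes. For its version, the probe set definition and the build: not given in the sources used here. Of 21212 probe sets, 18786 had 1 gene symbol, 6 several and 2420 are unnamed here. For 18775 probe sets the current symbol was taken through the Entrez number (GRCm38.p6 gene table, names only). For 2 genes with several probe sets the brightest was used, giving 18784 genes with no filter.

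Dhx9.1241 minus Rluc.713 was fitted with limma 3.58.1 (lmFit, eBayes) in R 4.3.3, two-sided, without covariates, and all adjusted p-values are Benjamini-Hochberg values over all 18784 genes. No list was tested as a set. On simulated data for this comparison (18784 genes, 10 runs, independent noise between genes) 4.56% of calls were false. The real arrays also shift many genes together, which the simulation lacks, so this rate holds for that setting only. The members, lists and tests were chosen with earlier results of these data known. Genes given on every array were those with an unadjusted p under 0.05 and, in each pathway, those with the 2 largest changes (all in pathways of 3); in each other list, up to 4 called genes or the 2 with the largest changes. Chek2, Topbp1, Brca1, Rad51c and the neighbouring genes were added after their values were seen. Of the windows to be printed, that of H2ax was not in the table used here. Alternatives were 2 other normalizations, median centring, 2 filters, probe set means, a variance trend with robust estimation, array weights, the replicate block and leaving out each array. Leaving out control replicate 1 and Dhx9.1241 replicate 2 together was added after seeing the data. The number of arrays limits the precision.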

Additional observations from a re-analysis of the deposited data

How the results depend on the processing

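No gene of the 39 was lower past the threshold under any of the 16 alternatives, and 2 were higher under at least 1: Rnaseh2a and Rad52 with cyclic loess, in the brighter genes (level at least the median), with array weights and under a robust variance trend (2 genes each), and Rnaseh2a with quantile normalization again and without the dimmest 25% of genes (1 each). Rnaseh2a then had adjusted p of 0.00372 to 0.0388, and no member passed in the fits without 1 array, with the replicate block (smallest adjusted p = 0.156) or with arrays centred on their median (0.147). Of the 39, 25 kept the sign of their change under all alternatives, some of which (filters, probe set means, variance trend, replicate block) could not alter it. The median of the 39 ran from -0.047 to 0.011, and the Fanconi median moved to -0.113 without control replicate 1 (-0.113 to 0.044 over the alternatives); the cause was not tested. Over all genes, 389 higher and 201 lower (65.9% higher) became 507 and 360 (58.5%) with quantile normalization again, 503 and 345 (59.3%) with cyclic loess, 250 and 185 (57.5%) with centring, 609 and 382 among bright genes, 673 and 466 with a variance trend, 669 and 542 (55.2%) with array weights, 172 and 92 with the replicate block, and 126 to 497 and 70 to 399 without 1 array. Of the other 147 repair genes, the 4 higher became 7 among bright genes and with array weights, and 2 to 5 without 1 array (2 without Dhx9.1241 replicate 3). The 0 lower became 3 with quantile normalization again, 1 with cyclic loess, 3 among bright genes, 1 without the dimmest 25%, 5 with a variance trend, 4 with array weights and 0 to 3 without 1 array (3 without control replicate 1). No pairing of the arrays by replicate number was seen, though so few arrays cannot exclude one. Deviations of same-numbered arrays correlated at -0.271, -0.339 and 0.239, and 2 of 6 arrays correlated best with their own number.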

Other observations

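The 6 repair genes whose groups did not overlap differed in how they read on the 2 arrays where most of the 39 lay low. Rnaseh2a had its highest value of all on Dhx9.1241 replicate 2 (12.17) and its lowest control on replicate 2 (11.84). H2ax also had its highest Dhx9.1241 value on Dhx9.1241 replicate 2 (11.31). Nbn, Palb2, Atm and Rad52 had their lowest Dhx9.1241 value on that array, at 9.88, 9.38, 10.98 and 11.59. Among genes near 0 in the comparison, Rad51c spanned 8.94 to 9.29 and Fancm 9.31 to 9.63 over the controls, both lowest on control replicate 1. Their changes ran from -0.17 to 0.01 and from -0.11 to 0.05 over the alternatives.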
